A study of Homo sapiens with 2 samples.

Results

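Expression of 9 genes of the JAK-STAT pathway was compared between A549 cells carrying a hairpin against SOX2 and their control. The genes were the kinases JAK1, JAK2 and TYK2, the transcription factors STAT3, STAT5B and STAT6, the inhibitors SOCS2 and SOCS3, and IL6ST, which encodes the receptor chain gp130. They were chosen by symbol, with earlier results of these data known, and all 9 were found among the 13137 genes of the deposited table. A549 is a human lung adenocarcinoma cell line. The cells were infected with lentivirus and selected as polyclones that carry either shRNA-SOX2 or a scrambled hairpin (shRNA-Con) behind a doxycycline-inducible H1 promoter (H1TetO), and both kinds of cell were collected 4 days after doxycycline was added. Thus the control shares the vector, the selection and the drug, and the knockdown rests on 1 hairpin sequence. Digital gene expression, which counts a short tag from each captured mRNA so that a count does not grow with transcript length, was run on mRNA purified out of 4 µg of total RNA. There was 1 library per condition and therefore no spread between cultures. A gene's tags were set against all remaining gene tags in Fisher's exact test (two-sided), with Benjamini-Hochberg adjustment over the whole table and the study's FDR of 0.001. Such a test contrasts a pair of libraries and says nothing of how far other cultures would vary.

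In this pathway a cytokine joins its receptor chains at the cell surface, the Janus kinases (JAKs) bound to those chains become active, and STAT proteins that they phosphorylate enter the nucleus to activate genes. gp130 is the chain shared by the receptors of interleukin 6, interleukin 11, leukaemia inhibitory factor (LIF) and related cytokines, and it works mainly through JAK1 and STAT3. SOCS proteins are made in response to the signal and shut it off by blocking the kinases or the receptor. In lung adenocarcinoma the route is best known for STAT3 activity downstream of gp130 cytokines and growth factor receptors.

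The libraries held 2304184 gene tags (shRNA-Con) and 2093816 gene tags (labelled shRNA-SOX2). The targeted gene had 16 tags in shRNA-Con against 23 in the other library, a ratio of 1.58. Its 95% interval of 0.80 to 3.20 covers counting error only and holds no ratio below 0.80. No fall of SOX2 mRNA was therefore seen between these libraries, and every direction below is read between the libraries as labelled. The abbreviated column names SC and S1 were read as shRNA-Con and shRNA-SOX2. Epithelial and A549 markers had 28016 and 26857 tags over KRT7, KRT8, KRT18, AKR1B10, CDH1 and EPCAM together, nearly all from the keratins and AKR1B10. Within this sum KRT7 was lower, with 3899 and 1606 tags, and KRT8 was higher, with 7702 and 12729. The surface markers were scarce, with 50 and 50 tags for CDH1 and 8 and 4 for EPCAM. Leukocyte markers (PTPRC and CD14) had 13 and 12 tags in sum, COL1A1 of fibroblasts had 44 and 43, and PECAM1 of endothelium had 3 and 0. The 4 alveolar type II markers SFTPA1, SFTPB, SFTPC and NKX2-1 were not analysed here.

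Of the 9 genes, 4 fell in the library labelled shRNA-SOX2 and 0 rose. JAK1, STAT5B and SOCS3 fell by between 1.99-fold and 3.14-fold, and IL6ST went from 14 tags to 0. Of all genes tested 21.7% passed the test, 12.2% as lower and 9.53% as higher. Among the 8175 genes with 50 tags or more in total, 32.7% passed, and 18.7% of these 8175 genes passed as lower. The other 5 genes did not pass. By value 8 of the 9 genes were lower and STAT6 was higher. The median log2 fold change over the 9 genes was -1.0, against -0.10 over the 10045 genes with at least 20 tags. Because the 9 genes were chosen with earlier results known, this contrast describes them and is no test of the set. Of the 7 members with at least 20 tags, 3 had a log2 fold change of -1 or below, as had 13% of all such genes. None of the 7 reached a log2 fold change of 1, which 10.4% of all such genes did. These calls take the spread between cultures as 0. When the coefficient of variation between cultures was assumed to be 0.1 in edgeR's exact test, JAK1 (adjusted p = 0.000523) and SOCS3 (adjusted p = 0.000614) still passed, and with 0.2 no member did.

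**Figure D1:**
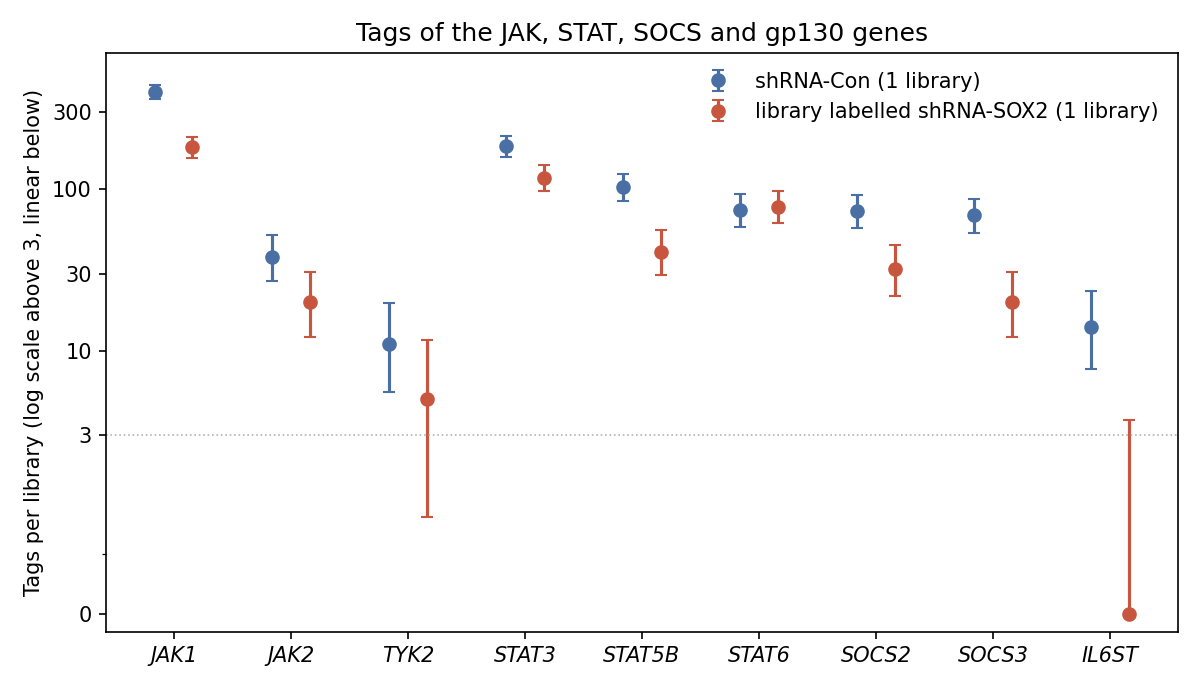
Tags of each of the 9 genes in the shRNA-Con library against the library labelled shRNA-SOX2, on an axis that is logarithmic above 3 tags and linear below. Points are counts of 1 library each and bars are exact 95% Poisson intervals, which cover counting error only. The bars do not overlap for JAK1, STAT3, STAT5B, SOCS2, SOCS3 and IL6ST, and STAT6 stands at 74 and 78 tags.

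JAK1 is the kinase bound to gp130 and to the interferon receptors. It had 399 tags in shRNA-Con against 182 in the library labelled shRNA-SOX2, or 173 and 86.9 CPM (scaled to the gene tags of the library). Its ratio was 0.502 (95% interval 0.419 to 0.60, Clopper-Pearson), a log2 fold change of -0.99 with an adjusted p of 3.12e-14 in Fisher's exact test. JAK1 was the most abundant of the 9 genes and its interval was the narrowest. At its depth any count up to 271 tags would have passed as lower. Among the 1313 genes with total tags within 1.5 times its own, 28.1% passed as lower, and the fold change of JAK1 stood at percentile 9.52 of them.

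JAK2, which serves the growth hormone, erythropoietin and interferon-gamma receptors, had 38 and 20 tags. Its ratio was 0.579 (0.319 to 1.02; adjusted p = 0.111, Fisher's exact test). TYK2, the partner of JAK1 at type I interferon receptors, had 11 and 5 tags, a ratio of 0.50 (0.136 to 1.56; adjusted p = 0.355, Fisher's exact test). JAK3, the lymphoid member of the family, had 18 and 9 tags (adjusted p = 0.303, Fisher's exact test). For TYK2 no count in the library labelled shRNA-SOX2, not even 0, would have passed as lower at this depth, and JAK2 would have needed 9 tags or fewer.

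The make-up of the JAK family was alike in the libraries. JAK1 held 85.6% of the 466 JAK tags in shRNA-Con (95% Wilson interval 82.1% to 88.5%) and 84.3% of the 216 in the library labelled shRNA-SOX2 (78.8% to 88.5%). Summed over its 4 kinases the family had a ratio of 0.510 (0.432 to 0.601). The change of JAK1 divided by that of JAK2 was 0.867 (exact 95% interval 0.476 to 1.62), and divided by that of TYK2 it was 1.0 (0.316 to 3.74). These ratios of ratios do not depend on how the libraries are scaled. A difference between the kinases was therefore not detectable, but the intervals are wide.

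**Figure D2:**
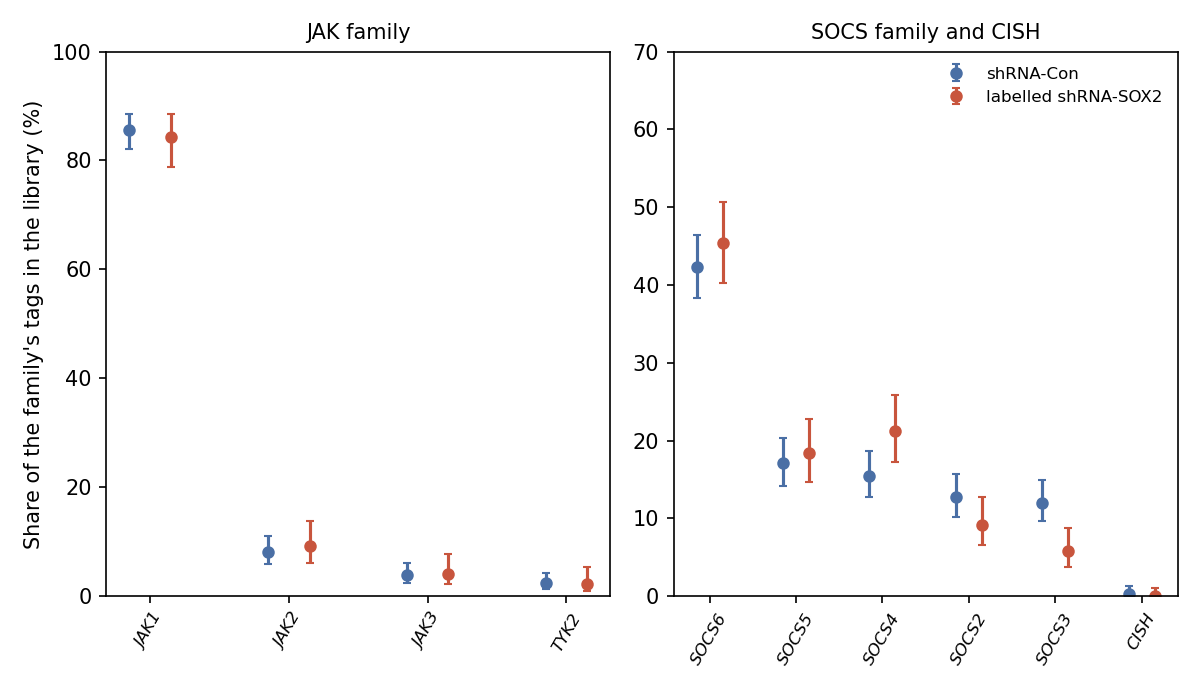
Share of each gene in the tags of its family, in percent, for the JAK kinases and the SOCS genes with CISH, for shRNA-Con beside the library labelled shRNA-SOX2. Points are 1 library each and bars are 95% Wilson intervals from counting error. The JAK shares lie close together, while SOCS3 goes from 12% to 5.75% of its family.

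Among the STAT factors the values went in different directions. STAT5B, which carries signals of growth hormone, prolactin and several interleukins, had 103 tags in shRNA-Con against 41 in the library labelled shRNA-SOX2. Its ratio was 0.438 (0.297 to 0.635), which is -1.19 on the log2 scale (adjusted p = 2.28e-05, Fisher's exact test). Of the 3 STAT genes chosen it was the 1 that fell. STAT5A, its neighbour on chromosome 17 and a close paralog, had 11 and 19 tags (adjusted p = 0.197, Fisher's exact test). The table does not say how tags common to paralogs were assigned, so the values of this pair are less certain than those of the other STAT genes.

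STAT3, the main effector of gp130, had 185 and 118 tags, a ratio of 0.702 (0.552 to 0.889). With a log2 fold change of -0.51 and an adjusted p of 0.00948 in Fisher's exact test it did not pass, and 107 tags or fewer would have been needed. It passed when the libraries were scaled by their clean tags (adjusted p = 0.000987, Fisher's exact test). With TMM factors STAT3 did not pass (log2 fold change -0.44). STAT6, the factor of interleukin 4 and interleukin 13 signalling, had 74 and 78 tags. Its ratio of 1.16 had an interval from 0.833 to 1.62 (adjusted p = 0.516, Fisher's exact test), and it was the only one of the 9 above 1.

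The 3 genes differed from each other beyond counting error. The change of STAT5B divided by that of STAT6 was 0.378 (exact 95% interval 0.226 to 0.628). For STAT3 over STAT6 the quotient was 0.605 (0.401 to 0.914), and for STAT3 over STAT5B it was 1.60 (1.02 to 2.53). STAT6 was the highest of the 3, STAT3 lay between, and STAT5B was the lowest, and each step in this order had an interval that did not reach 1.

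Of the other genes in the list of STAT factors, IRF9, the DNA-binding partner of STAT proteins in type I interferon signalling, had 52 and 80 tags (adjusted p = 0.0102, Fisher's exact test). STAT4 had 39 and 42 tags and STAT2 had 2 and 4. In all, 1 of the 7 genes of this list passed, with a median log2 fold change of 0.23 over the 6 with at least 20 tags.

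**Figure D3:**
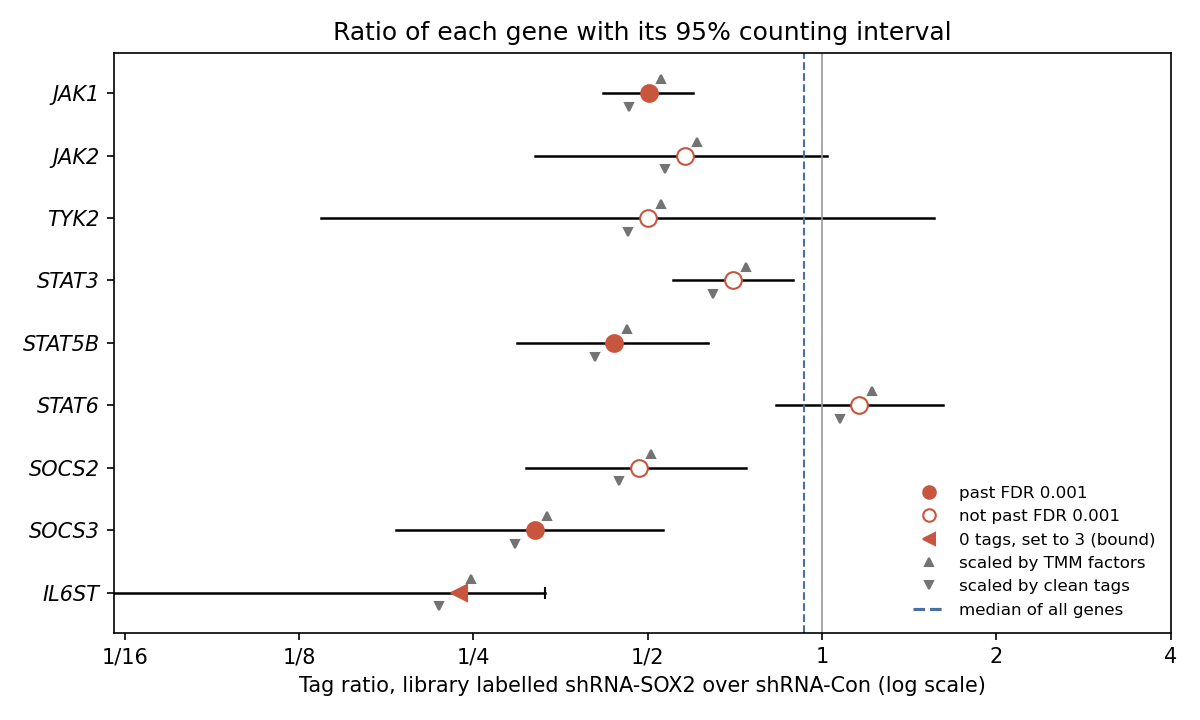
Tag ratio of each of the 9 genes, library labelled shRNA-SOX2 over shRNA-Con, on a log axis with its 95% Clopper-Pearson interval. Filled symbols passed FDR 0.001, the left-pointing triangle of IL6ST marks 0 tags set to 3, and grey triangles give the ratio under other scalings. The intervals of 6 genes lie below 1, and that of STAT6 runs from 0.833 to 1.62.

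SOCS3 is the inhibitor that binds gp130 and JAK1 and ends STAT3 signalling. It had 69 tags in shRNA-Con against 20 in the library labelled shRNA-SOX2, or 29.9 and 9.55 CPM. Its ratio was 0.319 (0.184 to 0.531), which is -1.65 on the log2 scale (adjusted p = 8.31e-06, Fisher's exact test). This was the largest fall among the members with tags in both libraries, at percentile 3.73 of all genes with at least 20 tags.

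SOCS2, which restrains growth hormone signalling through STAT5B, had 73 and 32 tags. Its ratio was 0.482 (0.308 to 0.740), a log2 fold change of -1.05, and its adjusted p of 0.00174 in Fisher's exact test missed the threshold. With 30 tags or fewer it would have passed, and it passed with clean tags (adjusted p = 0.000398, Fisher's exact test). With TMM factors it did not pass (log2 fold change -0.98). SOCS2 overlaps the antisense gene SOCS2-AS1, and since counting by strand is not stated, it is not known whether tags of the pair were kept apart. The pseudogenes SOCS2P1 and SOCS2P2 are annotated as well, and how tags common to them and SOCS2 were counted is not stated. The change of SOCS2 divided by that of SOCS3 was 1.51 (exact 95% interval 0.755 to 3.07), which leaves no detectable difference between them.

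None of the other SOCS genes passed with gene tags or with TMM factors. SOCS6 had 243 and 158 tags (log2 fold change -0.48; adjusted p = 0.00435, Fisher's exact test, and 0.00025 with clean tags), SOCS5 had 98 and 64, and SOCS4 had 89 and 74. Of the 6 genes of the SOCS and CISH list with a value, 1 passed, SOCS3, and the median log2 fold change of the 5 with at least 20 tags was -0.48. SOCS3 went from 12% of the family's tags (9.61% to 14.9%) to 5.75% (3.75% to 8.71%). Of 7 further inhibitors, which were the PIAS proteins and tyrosine phosphatases, 1 fell. This was PTPN2, a phosphatase that acts on JAK1 and STAT proteins, with 128 and 41 tags (log2 fold change -1.50; adjusted p = 6.40e-09, Fisher's exact test). The median of the 6 inhibitors with at least 20 tags was -0.32.

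IL6ST had 14 tags in shRNA-Con against 0 in the library labelled shRNA-SOX2. With the 0 set to a limit of 3 tags, or 1.43 CPM in that library, IL6ST was 4.24-fold lower (log2 fold change against this limit -2.08; adjusted p = 0.000707, Fisher's exact test). The counting error of both libraries allows a smaller fall, since the 95% interval of the ratio reached up to 0.332. IL6ST had the fewest tags of the 9 genes over both libraries, while TYK2 had fewer in shRNA-Con. With 1 tag or more in the library labelled shRNA-SOX2 it would not have passed. Since no gene of the table had exactly 1 tag, a 0 cannot be told apart from 1 tag that was removed before deposit. Of the 1398 genes with 10 to 20 tags in shRNA-Con, 36 (2.58%) had 0 tags in the other library. In the reverse direction it was 38 of 1587 (2.39%). A pseudogene, IL6STP1, is annotated, and how tags common to it and IL6ST were counted is not stated.

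The partner chains of gp130 did not pass. LIFR, the chain that binds LIF, had 48 and 27 tags (adjusted p = 0.111, Fisher's exact test). OSMR of oncostatin M had 19 and 14, IL11RA had 11 and 12, and IL6R had 6 and 2. IL27RA was higher by value, with 17 and 31 tags (adjusted p = 0.0543, Fisher's exact test). Thus 1 of the 6 receptor genes in the table passed, IL6ST itself. The median log2 fold change of the 4 with at least 20 tags was -0.02, which TMM factors turned to 0.05.

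Among the cytokines that signal through gp130, IL11 and LIF fell. IL11, the gene of interleukin 11, fell from 311 tags to 49, or from 135 to 23.4 CPM (ratio 0.173, 0.126 to 0.235; adjusted p = 1.06e-40, Fisher's exact test). LIF fell from 488 tags to 204, a ratio of 0.460 (0.389 to 0.543; adjusted p = 8.71e-21, Fisher's exact test). CLCF1, a cytokine that acts through the CNTF receptor, had 172 and 108 tags and did not pass (adjusted p = 0.00945, Fisher's exact test). IL6 had 8 and 0 tags (adjusted p = 0.0250, Fisher's exact test). Of the 4 cytokine genes with a value, 2 fell and 0 rose, and their summed tags were 979 and 361. IL11 was also the only gene in all 10 lists that passed with an assumed coefficient of 0.2 (adjusted p = 3.86e-05, edgeR's exact test).

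**Figure D4:**
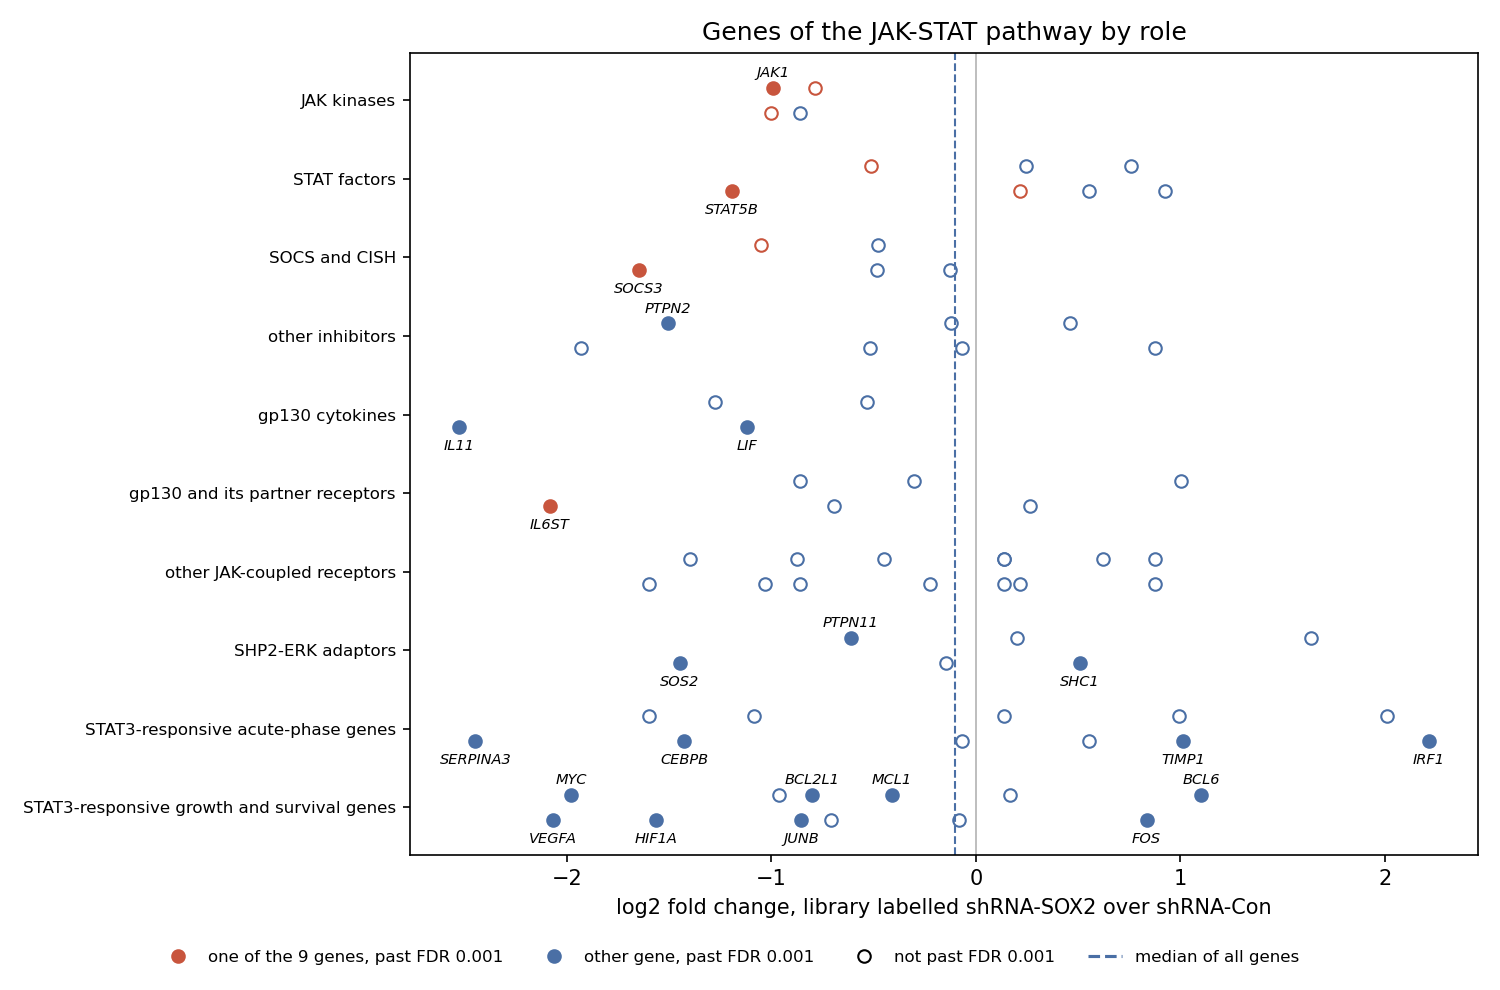
Log2 fold change of the genes in the 10 lists of the pathway, library labelled shRNA-SOX2 over shRNA-Con, with 1 row per list and 1 point per gene that had 3 or more tags in a library. Filled points passed FDR 0.001 and are named, red points are among the 9 genes, and the dashed line is the median of all genes. IL11 lies at -2.53 and SERPINA3 at -2.45, and the named genes to the right are SHC1, FOS, TIMP1, BCL6 and IRF1.

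Receptors of other cytokines that use JAKs gave 0 calls among 16 genes by Fisher's exact test, with a median log2 fold change of 0.14 over the 9 with at least 20 tags. With clean tags IFNGR1, a chain of the interferon-gamma receptor named after its values were seen, passed as lower, with 99 and 49 tags (adjusted p = 0.000338, Fisher's exact test). With TMM factors it did not pass. Of the adaptors that link gp130 to RAS and ERK through the phosphatase SHP2, 2 fell and 1 rose among 6. PTPN11, which encodes SHP2, had 508 and 302 tags (log2 fold change -0.61; adjusted p = 3.79e-08, Fisher's exact test). SOS2, an exchange factor for RAS, had 84 and 28 tags (log2 fold change -1.45). The adaptor SHC1 rose from 286 to 370 tags (log2 fold change 0.51), a call that was lost with clean tags (adjusted p = 0.00201, Fisher's exact test). The median of these 6 adaptors was 0.03 with gene tags and -0.09 with clean tags.

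Genes known to respond to STAT3 in growth and survival held the largest number of calls, with 6 lower and 2 higher of 12. That is 66.7%, in a list whose genes all had 50 tags or more in total. Among all genes of the table with that many tags, 32.7% passed and 18.7% passed as lower. The list was chosen with earlier results known and ran deeper, from 121 tags for BCL6 to 2060 for FOS. Calls were more frequent at depth, with 28.1% passing as lower among genes near the 581 tags of JAK1. VEGFA, an angiogenic factor, fell from 309 to 67 tags (log2 fold change -2.07). MYC fell from 542 to 125 (-1.98), HIF1A, the hypoxia-responsive factor, from 1511 to 464 (-1.57), and the AP-1 gene JUNB from 171 to 86 (-0.85). BCL6, a transcriptional repressor, rose from 41 to 80 tags (log2 fold change 1.10), and FOS rose from 786 to 1274 (0.83). The call of BCL6 was lost with clean tags (adjusted p = 0.00112, Fisher's exact test). The adjusted p-values of the 8 calls in Fisher's exact test ran from 5.28e-106 for HIF1A to 0.000829 for MCL1. MCL1, a survival factor named after its values were seen, was lost with TMM factors (adjusted p = 0.00761, Fisher's exact test). The median over the 12 genes was -0.76. These genes answer to many other signals besides STAT3.

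The acute-phase genes were mixed, with 2 lower and 2 higher of 11 and a median log2 fold change of 0.46 over the 6 with at least 20 tags. SERPINA3, a protease inhibitor of the acute phase, fell from 30 to 5 tags (log2 fold change -2.45; adjusted p = 0.000286, Fisher's exact test). CEBPB, a transcription factor of acute-phase genes, fell from 1363 to 461 (-1.43). IRF1, a transcription factor of the interferon response, rose from 9 to 38 tags (log2 fold change 2.22; adjusted p = 3.41e-05, Fisher's exact test). TIMP1, an inhibitor of metalloproteases, rose from 483 to 886 (1.01).

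Of all 79 listed genes with a value, 22 passed, 17 as lower (77.3%) and 5 as higher. With clean tags 26 passed, 23 of them as lower (88.5%), and with TMM factors 21 passed, 16 of them as lower (76.2%). Of the calls over all genes 56.1% were lower with gene tags, 66.6% with clean tags and 49.4% with TMM factors. Without the 9 members 18 of 70 passed (25.7%), against 21.7% of all genes, and 72.2% of these calls were lower. The median log2 fold change of these others was -0.30 over the 53 with at least 20 tags, against -0.10 for all genes. The listed genes outside the 9 were thus called about as often as the rest of the table.

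Many STAT dimers bind the palindrome TTCNNNGAA, which reads alike on both strands. It was sought in the RefSeq promoter windows of build GRCh38.p14, from 250 bases before to 50 after a gene's start. Windows were found for 8 of the 9 genes, with no entry matched for SOCS2, and 0 of their 14 windows held the palindrome. It was present in 7.66% of all 35116 windows and in 12 of the 117 windows of the listed genes. Only 7 of all windows held it 4 times or more, and 2 of these belonged to listed genes, BCL6 and CISH. The promoters below are shown because they are these 2, and that of IRF1, which rose, because it carries 1 copy. Capitals mark the palindrome.
CISH promoter: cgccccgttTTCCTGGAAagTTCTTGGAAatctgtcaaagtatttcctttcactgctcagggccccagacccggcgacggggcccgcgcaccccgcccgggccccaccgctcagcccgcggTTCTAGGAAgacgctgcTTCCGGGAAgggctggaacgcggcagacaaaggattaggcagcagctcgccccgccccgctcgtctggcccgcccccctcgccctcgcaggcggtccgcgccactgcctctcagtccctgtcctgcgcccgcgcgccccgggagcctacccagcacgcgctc
BCL6 promoter: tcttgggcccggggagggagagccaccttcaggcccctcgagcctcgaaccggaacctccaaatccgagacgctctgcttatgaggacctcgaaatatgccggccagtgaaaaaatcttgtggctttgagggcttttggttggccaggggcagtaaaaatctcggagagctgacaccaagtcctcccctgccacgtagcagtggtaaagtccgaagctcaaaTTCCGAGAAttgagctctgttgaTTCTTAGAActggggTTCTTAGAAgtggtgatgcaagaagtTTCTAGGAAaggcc
IRF1 promoter: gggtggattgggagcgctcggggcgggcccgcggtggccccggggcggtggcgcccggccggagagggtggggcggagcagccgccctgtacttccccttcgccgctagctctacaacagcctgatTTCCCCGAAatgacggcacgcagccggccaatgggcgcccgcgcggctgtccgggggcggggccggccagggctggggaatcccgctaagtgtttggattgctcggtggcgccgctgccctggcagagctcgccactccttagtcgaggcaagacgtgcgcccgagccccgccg
The CISH window is chr3:50611725-50612024, that of BCL6 chr3:187745419-187745718 and that of IRF1 chr5:132490724-132491023, all on the minus strand. CISH is a SOCS-family inhibitor known as a STAT5 target and was named after its values were seen. It had 2 and 0 tags, which gives no fold. Of the 11 listed genes with the palindrome 10 had a value, of which 4 were higher and 6 lower by value. This split includes genes near 0, namely CISH and IFNLR1 with 2 and 0 tags and ICAM1 with 0 and 3, whose directions mean little. BCL6 and IRF1 passed the test, both as higher, which is 2 of the 10 with a value, beside 21.7% of all genes. The call of BCL6 was lost with clean tags. IRF9, which also carries 1 copy, did not pass. LIFR, with 1 copy in each of 2 windows, had 48 and 27 tags. A match of these letters is no evidence of binding in A549 cells. Only this spacing was sought, so STAT sites of another form were not covered.

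**Figure D5:**
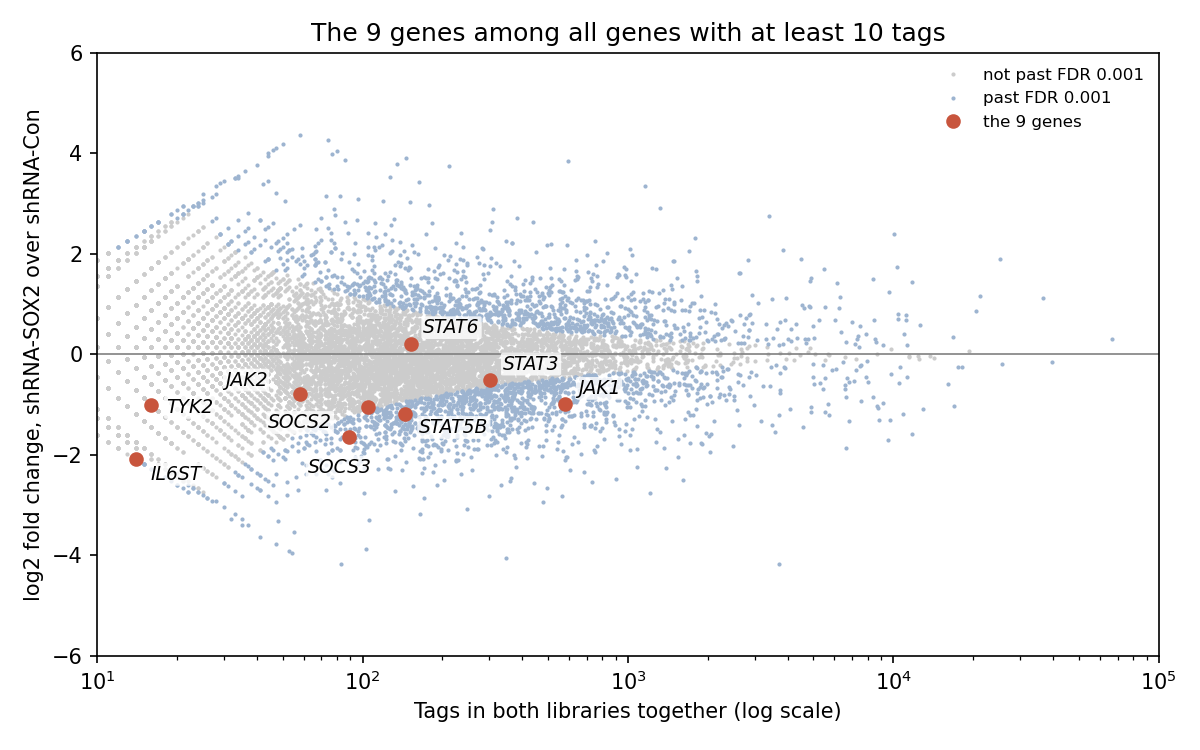
Log2 fold change, library labelled shRNA-SOX2 over shRNA-Con, against the tags of both libraries together (log axis), for all genes with at least 10 tags. Grey and blue points are genes that did not and did pass FDR 0.001, and red points are the 9 genes. STAT6 lies above 0, and JAK1 at 581 tags is the deepest of the red points.

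The depth of a gene set what could be called, as the plot of fold change against tags shows. The 9 genes ran from 14 to 581 tags, and 2 of them, TYK2 and IL6ST, had fewer than 20. Relative to the median of all genes, a measure that other scalings leave as it is, the log2 fold change was -0.89 for JAK1, -1.09 for STAT5B, -1.55 for SOCS3 and 0.32 for STAT6. Against genes of like depth SOCS3 stood at percentile 3.30, IL6ST at 2.56 and STAT5B at 8.93. JAK2 stood at 20.2, TYK2 at 19.5 and STAT3 at 29.5, well inside the bulk of such genes, and STAT6 at 68.6.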

How the data were processed

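Tags of oligo(dT)-selected mRNA were counted at the Beijing Genomics Institute, and the authors deposited the raw count of tags per Entrez Gene ID. Their deposited TPM scales the count to the clean tags of the library, with 0 written as 0.01, and served only to recover the clean tags (3516266 for shRNA-Con and 3456234 for the library labelled shRNA-SOX2). The build hg19 is named in the submitters' processing notes, and the aligner and annotation are not given in the sources used here. The authors' log2 ratios, p-values and FDR were not used. Rows with a gene ID but no symbol held at most 0.0535% of gene tags and stayed in the totals and the tests. No gene had 1 tag in either library.

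Counts were divided by the total of gene tags, and counts below 3 were set to 3 for log2 fold changes. Intervals are at 95% and cover counting error only. Fisher's exact test was adjusted over 13137 genes. Python 3.11.15, scipy 1.17.1, R 4.3.3, edgeR 4.0.16 and DESeq2 1.42.0 (size factors) were used, and the steps were tested on simulated data. Alternatives were other scalings (clean tags, TMM factors and the median ratio), the Audic-Claverie test, a floor of 10 tags for a gene to be tested, assumed coefficients of variation of 0.1, 0.2 and 0.4, an FDR of 0.05, a required log2 fold change of 1, and 0.5 added to each count. The members and lists were chosen with earlier results of these data known. Named were the 9 genes, the genes of the JAK, STAT, SOCS, gp130 cytokine and gp130 receptor lists with at least 3 tags, and elsewhere the largest changes past FDR 0.001, at most 4 per list and direction. Genes of the lists without a row in the table were not analysed here. The listed genes are those reported here, and 1 further gene of the lists as first drawn up is not reported here.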

Additional observations from a re-analysis of the deposited data

How the results depend on the processing

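No paired analysis was possible because a single library stands for either condition, which also means that none could be left out. Of the 9 genes 4 passed FDR 0.001, and 4 did with the Audic-Claverie test, the median ratio, TMM factors or a floor of 10 tags. With clean tags or an FDR of 0.05 the number was 6, and with a required log2 fold change of 1 it was 3. In edgeR's exact test it was 2 when a coefficient of 0.1 was assumed. With 0.2 it was 0, with 5 genes at an unadjusted p under 0.05, and with 0.4 it was 0, with 1 such gene. Of the listed genes 22 passed, 11 with a coefficient of 0.1, 1 with 0.2, and 0 with 0.4, where 7 had an unadjusted p under 0.05. With an FDR of 0.05 the number was 38, and under the remaining alternatives it lay between 15 and 26. No replicate tells which spread applies. No fold change of the 9 genes changed direction under the other scalings, which shift all genes alike, or with 0.5 added to each count. The 4 calls were lost with a coefficient of 0.2, and STAT3 and SOCS2 passed with clean tags. Clean tags lower every log2 fold change by 0.11, and thus shift the median of all genes from -0.10 to -0.22. The 7 ratios of ratios stayed within their intervals when 0.5 was added to each count. Depth limits TYK2 most, which could not have passed as lower.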

Other observations

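The Gene Ontology terms in the deposited table give another view of the same signalling, read after the values of the 9 genes were known. They share genes with the 9 and with the lists above, so their calls are not separate from those. Over all genes 21.7% passed the test, 12.2% as lower and 9.53% as higher. The term JAK-STAT cascade held 17 genes of the table, 3 of them among the 9, and 2 fell, SOCS3 and IL6ST. The median log2 fold change of the 13 with at least 20 tags was 0.14, above the -0.10 of all genes. The term response to cytokine stimulus held 29 genes, 4 of them among the 9. Of the 29 genes 8 fell (BCL2L1, FOSL1, IL6ST, JUN, JUNB, MCL1, PTGS2 and SOCS3) and 2 rose (CTNNB1 and FOS), with a median of -0.32 over 23 genes. Of these calls CTNNB1 was lost with clean tags and MCL1 with TMM factors. The term cytokine-mediated signaling pathway held 26 genes, 3 of them among the 9. Of the 26 genes 5 fell (BAD, EREG, JAK1, KLF6 and STAT5B) and TNFRSF1A rose, with a median of -0.24 over 20 genes. Here TNFRSF1A was lost with clean tags and KLF6 with TMM factors. The table lists 4 genes with the function growth hormone receptor binding, and all 4 are among the 9, namely JAK1, JAK2, TYK2 and SOCS2, of which JAK1 passed.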
